A study of Mus musculus with 12 samples.

Results

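The comparison described here is between ADF_Crtc2 muscle, which was transduced with a Crtc2 expression vector and taken after 3 rounds of alternate day fasting, and Fed_GFP muscle, which was transduced with a GFP vector and taken from mice fed ad libitum. Its members were chosen by the column names of the deposited count table, 3 libraries of each group, so it uses 6 of the 12 libraries of the study. All libraries were made from mRNA of the tibialis anterior, a mostly fast-fibred muscle of the lower leg, of C57BL/6 male mice of 13 weeks. The other 2 groups, each also of 3 libraries, are ADF_GFP (fasted, GFP vector) and Fed_Crtc2 (fed, Crtc2 vector). Every group thus carries a vector and none is untransduced muscle. ADF_Crtc2 and Fed_GFP differ in diet and in vector at once, so a change between them belongs to both together, and the other 2 groups are given beside it to show where a gene stands with only 1 of them. The labels do not name the kind of vector or its promoter, and they do not say whether the replicates, or the GFP and Crtc2 muscles, came from separate animals. The p-values therefore measure the spread between these libraries.

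CRTC2 is a coactivator of the transcription factor CREB1. Phosphorylation by kinases of the SIK and AMPK families holds it in the cytoplasm, and cAMP and calcium signals, which rise with catecholamines and exercise in muscle, release it to the nucleus, where it joins CREB1 on genes that carry a cAMP response element. Fasting muscle is known for a turn from glucose to fatty acids, in which PDK4 switches off the pyruvate dehydrogenase complex, for the breakdown of its own protein through the ubiquitin ligases FBXO32 and TRIM63, and for a response to glucocorticoids and to the FoxO factors that are set free when insulin falls.

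The tables held 27644433 to 31484693 counts per ADF_Crtc2 library and 24232450 to 28700850 per Fed_GFP library. Between 14468 and 15237 genes were detected in the former and between 14436 and 16347 in the latter. Levels are given as CPM (counts scaled to a common library size) scaled by TMM, a factor per library that centres the bulk of the genes, and as mean ± SD over 3 libraries. Fold changes come from one edgeR quasi-likelihood fit over all 12 libraries, and a gene passed the test at a Benjamini-Hochberg adjusted p of at most 0.05 over 16007 genes. Muscle markers were present throughout: the summed level of 12 myofibre genes was 197600 to 221800 CPM in ADF_Crtc2 and 143200 to 184600 CPM in Fed_GFP. On the first principal component, which held 39.4% of the variance in genes averaging 10 CPM or more, the ADF_Crtc2 libraries lay at 40.0 to 50.9, the ADF_GFP libraries at 20.6 to 30.9, and the fed libraries of both vectors between -52.1 and -21.2. The protocols name a pair of library kits without saying which samples each was used for, so a difference in preparation cannot be told apart from a difference between groups. Since the samples are pieces of whole muscle, fewer cells of a type and less RNA per cell cannot be told apart either.

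Crtc2 itself (chromosome 3, 90254163 to 90264125, GRCm38) was measured at 42.8, 40.6 and 31.4 CPM in the 3 ADF_Crtc2 libraries and at 29.2, 17.3 and 24 CPM in the Fed_GFP libraries. Each ADF_Crtc2 library was above each Fed_GFP library, by 1.63-fold on the means. Such a lack of overlap was common: of all genes tested, 15.4% had every ADF_Crtc2 library above every Fed_GFP library and 14.3% had every one below. The difference did not pass the test (log2 fold change 0.70 ± 0.27 SE, adjusted p = 0.102), and it stayed on that side under all 16 alternatives run, with adjusted p from 0.0640 to 0.374. Crtc2 was at 64.9, 58.2 and 77.9 CPM in Fed_Crtc2 and at 19.8, 16.1 and 23.6 CPM in ADF_GFP. The libraries of both Crtc2 groups thus lay above those of both GFP groups, and the ADF_Crtc2 libraries lay below the Fed_Crtc2 ones. Neither the difference from ADF_GFP (0.95 ± 0.27, adjusted p = 0.127) nor that from Fed_Crtc2 (-0.81 ± 0.27, adjusted p = 0.0623) passed. The labels do not give the sequence that the vector carries, so how much of its transcript was counted as mouse Crtc2 was not tested.

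Between ADF_Crtc2 and Fed_GFP 1978 of 16007 genes passed (12.4%), of which 1097 were higher in ADF_Crtc2 (6.85% of the genes tested) and 881 were lower (5.5%). At least 2-fold changes were 697 rises and 782 falls, and at least 4-fold changes were 112 rises and 373 falls, so falls were the larger ones. Rises and falls also differed by level. Among the 1258 most abundant genes, with means from 100 CPM upwards, 39.8% were higher and 6.52% lower. Among 6456 genes of 10 to 100 CPM, 8.5% were higher and 9.25% lower. Among 4176 genes of 2 to 10 CPM, 0.718% were higher and 4.12% lower. The counts given below for gene lists were not matched for level. For a list of abundant genes, 39.8% is the share to set beside its rises, and not 6.85%. The median log2 fold change over all genes was -0.11, but it was 0.445 over genes with means from 100 CPM upwards and 0.0181 over those of 10 to 100 CPM. The split depends on the scale: with library totals in place of TMM, 594 of 1992 genes that passed were higher, against 1097 of 1978, and the median over all genes moved to -0.41. TMM factors were 0.838 to 0.894 in ADF_Crtc2 and 1.03 to 1.16 in Fed_GFP, so small differences in either direction are relative to that scale.

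**Figure D1:**
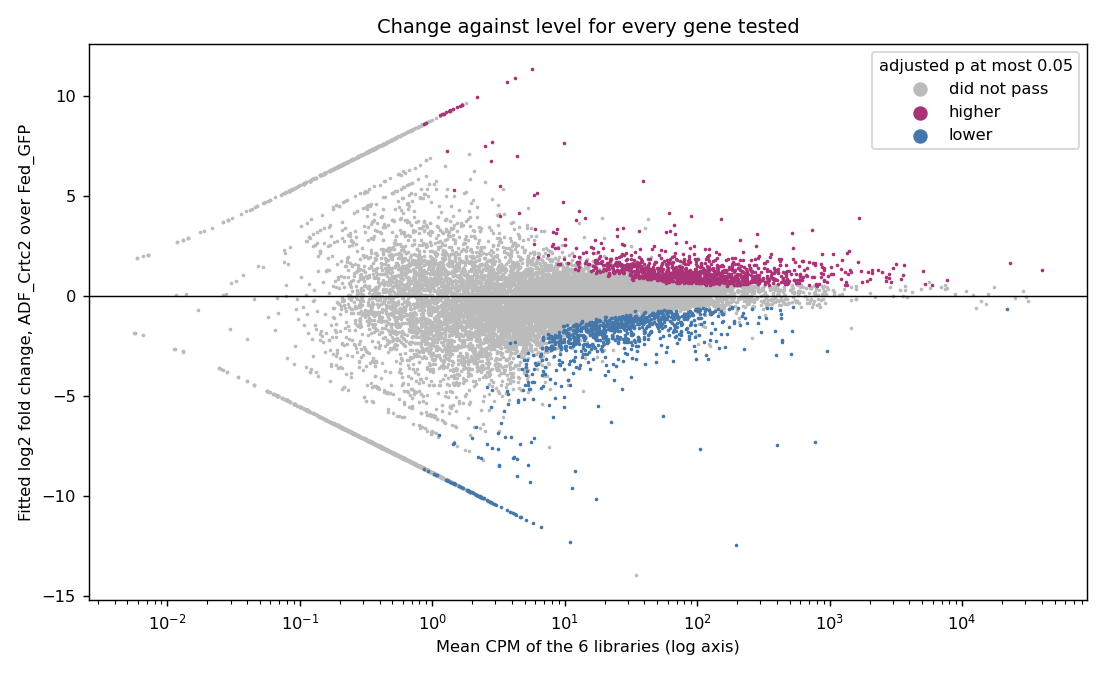
Each point is 1 of the 16007 genes tested, with its mean CPM over the 6 libraries (log axis) against its fitted log2 fold change, ADF_Crtc2 over Fed_GFP; purple points were higher and blue points lower at an adjusted p of at most 0.05. The 1097 rises lie mostly to the right, among abundant genes, and the 881 falls reach lower levels and larger sizes; the slanted edges are genes at 0 in all libraries of 1 group, whose fitted size has no exact value.

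Of the CREB and CRTC family, 8 genes were tested and 1 passed. Atf1, a close relative of CREB1 that binds the same element, rose from 6.93, 13.7 and 2.53 CPM in Fed_GFP to 35.7, 24.4 and 25.8 CPM in ADF_Crtc2 (1.89 ± 0.47, adjusted p = 0.00909). It was as high in ADF_GFP, at 35.5, 29.8 and 35.5 CPM. Creb1 was at 9.98 ± 3.66 CPM against 12.5 ± 3.04 CPM in Fed_GFP and Crem, which encodes both activators and repressors, at 9.73 ± 2.40 against 3.85 ± 3.35 CPM, and neither passed. Crtc1, Crtc3 and the coactivators Crebbp and Ep300 had log2 fold changes of 0.43, 0.87, 0.52 and 1.03 with adjusted p of 0.0607 or more.

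A list of 27 known CREB and CRTC target genes held 6 rises and 2 falls, with a median log2 fold change of 0.36 against -0.11 over all genes. The rises were Irs2, Nr4a3, Pde4d, Pde7b, Per1 and Cited2. Irs2, an adaptor of the insulin receptor, had no count in any Fed_GFP library and was at 11.1, 7.82 and 6.40 CPM in ADF_Crtc2, which is at least 78.8-fold higher when 3 counts per library are taken as the floor (adjusted p = 4.38e-05). It was also present in ADF_GFP, at 16.9, 11.2 and 9.91 CPM. Pde4d, a phosphodiesterase that degrades cAMP, was at 190, 135 and 125 CPM against 27.9, 27.2 and 28.3 CPM (2.43 ± 0.24, adjusted p = 1.16e-06), with no overlap. Nr4a3, an orphan nuclear receptor induced by exercise and catecholamines, was at 35.8, 16.4 and 15.6 CPM against 0, 2.99 and 1.75 CPM (3.82 ± 1.03, adjusted p = 0.0272). It lost its call when ADF_Crtc2 replicate 1, 2 or 3 or Fed_GFP replicate 3 was left out, with adjusted p of 0.0945, 0.0585, 0.0623 and 0.123. The falls were Id1 and Id3, inhibitors of differentiation that also answer to BMP signals: Id3 was at 15, 14.2 and 15.5 CPM against 32.9, 30.2 and 56.4 CPM (-1.42 ± 0.30, adjusted p = 0.00308). Of the immediate responders, Nr4a1 was at 146 ± 24.6 against 101 ± 38.2 CPM (adjusted p = 0.161), Sik1 at 19.8 ± 7.07 against 22.2 ± 12.4 CPM (0.851), and Ppargc1a, the coactivator of mitochondrial genes, at 42.1 ± 11.8 against 28.9 ± 13.8 CPM (0.388). Without ADF_Crtc2 replicate 1, 3 of these targets were higher in place of 6, and without ADF_Crtc2 replicate 2 or 3 or Fed_GFP replicate 3, 1 was lower in place of 2. Cited2 and Id1 were the least stable, and lost their calls under 9 and 8 of 16 alternatives. In ADF_GFP against Fed_GFP the same list held 5 rises and no fall, with a median of 0.595. Fed_Crtc2 against Fed_GFP gave no call in it, with a median of 0.22. Between ADF_Crtc2 and ADF_GFP no target passed either, and the median was -0.397.

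The element that CREB1 and ATF1 read is made of the letters TGACG or its reverse complement CGTCA. Upstream sequences are therefore shown for Atf1 and the target genes Nr4a1 and Nr4a3, and for contrast for Pdk4, an abundant gene that rose. They are RefSeq sequences of GRCm38.p6, 5′ to 3′ on the strand of the gene, from up to 250 bases before the start of transcription, without bases that any annotated exon covers, and each core site is in capitals. Atf1 (chr15:100227609-100227818, plus strand) holds 1, Nr4a1 (chr15:101266596-101266845, plus strand) holds 4, Nr4a3 (chr4:48045055-48045152, plus strand) holds 3 and Pdk4 (chr6:5496310-5496528, minus strand) holds none.
Atf1: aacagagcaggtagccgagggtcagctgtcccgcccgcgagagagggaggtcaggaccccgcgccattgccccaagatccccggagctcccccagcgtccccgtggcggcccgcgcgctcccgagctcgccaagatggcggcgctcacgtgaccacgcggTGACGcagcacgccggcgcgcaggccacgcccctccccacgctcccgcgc
Nr4a1: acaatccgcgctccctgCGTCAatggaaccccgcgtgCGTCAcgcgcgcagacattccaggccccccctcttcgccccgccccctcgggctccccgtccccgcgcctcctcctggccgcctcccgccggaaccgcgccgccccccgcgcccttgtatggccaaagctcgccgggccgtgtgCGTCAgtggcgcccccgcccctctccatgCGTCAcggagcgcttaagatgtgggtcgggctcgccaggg
Nr4a3: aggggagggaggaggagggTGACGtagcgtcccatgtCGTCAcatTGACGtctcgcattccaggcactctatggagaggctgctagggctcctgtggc
Pdk4: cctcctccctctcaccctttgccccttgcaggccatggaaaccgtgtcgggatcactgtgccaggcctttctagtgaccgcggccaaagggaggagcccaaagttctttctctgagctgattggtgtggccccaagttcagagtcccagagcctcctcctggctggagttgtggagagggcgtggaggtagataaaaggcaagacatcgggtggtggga
Of the pair with the most core sites among these 4, Nr4a3 passed and Nr4a1 did not. For each gene 1 promoter was taken, and of it the longest stretch free of exons. The stretches differ in length, with 98 bases for Nr4a3 and 250 for Nr4a1, so their numbers of sites are not directly comparable. Over windows from 250 bases before to 50 after the start, the core site was found on either strand in 20.8% of all 32851 promoters and the full palindrome TGACGTCA, which contains it, in 1.79%. Among the 11088 tested genes with a promoter in the table, 33.7% held a core site and 3.36% the full element. A gene counted if any of its windows held the site, unlike the shares of single promoters before. The shares were 39.9% and 3.51% for 854 genes that rose and 30.0% and 3.20% for 656 genes that fell. Of the CREB target list, 22 genes had a promoter and 16 of them (72.7%) held a core site, with the full element in Dusp1 and Btg2, neither of which passed. Of the 6 targets that rose, Irs2, Pde4d, Pde7b and Cited2 had no core site in this window. A match of letters is a description and no measure of binding.

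Upstream of CRTC2, the list of cAMP signalling genes had 24 tested members, of which 7 rose and 1 fell (median 0.49). Gnas, the stimulatory G protein, rose from 8.63 ± 5.12 to 32.4 ± 0.538 CPM (1.91 ± 0.46, adjusted p = 0.00745), and Adcy9, an adenylyl cyclase, from 4.93 ± 1.81 to 26.9 ± 7.81 CPM (2.45 ± 0.52, adjusted p = 0.00303). Brakes of the pathway rose with them: Prkar2a, a regulatory subunit of protein kinase A, went from 73.6 ± 39.1 to 256 ± 27.7 CPM, and Pkia, its peptide inhibitor, from 197 ± 48.2 to 474 ± 56.1 CPM. Both subunits of the calcium-dependent phosphatase calcineurin that were listed, Ppp3ca and Ppp3cb, rose by 0.78 and 0.61, calls that both ended with library totals (adjusted p = 0.183 and 0.257) and without Fed_GFP replicate 3. The fall was Adcy7, an adenylyl cyclase abundant in blood cells, at 0.259, 0 and 0.676 CPM in ADF_Crtc2 against 12.5, 11.8 and 9.10 CPM (-5.13 ± 0.91, adjusted p = 0.000571). ADF_Crtc2 was low in Adcy7 against ADF_GFP as well (-5.31 ± 0.91, adjusted p = 0.00789), though not without ADF_Crtc2 replicate 1 (0.0512).

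Of 17 genes of fatty acid uptake and mitochondrial entry 9 rose and 1 fell (median 0.91), of 17 genes of beta-oxidation 10 rose and none fell (median 0.80), and of 16 genes of lipolysis and lipid droplets 7 rose and none fell (median 1.16). With library totals as the scale the beta-oxidation count was 6 higher and 1 lower. Lpl, the lipase that frees fatty acids from circulating lipoproteins, was at 714, 522 and 655 CPM in ADF_Crtc2 and at 190, 230 and 218 CPM in Fed_GFP (1.57 ± 0.21, adjusted p = 2.78e-05). Acsl1, which activates fatty acids with coenzyme A, was at 652, 492 and 626 CPM against 101, 172 and 140 CPM (2.10 ± 0.23, adjusted p = 2.90e-06). For both genes, picked from those that passed, the groups did not overlap, as for the 15.4% of all genes given above. The enzymes on both sides of malonyl-CoA, the inhibitor of fatty acid entry into mitochondria, rose: Acacb, which makes it, went from 163, 215 and 199 to 780, 587 and 583 CPM (1.76 ± 0.20, adjusted p = 4.26e-06), and Mlycd, which removes it, from 80.3, 81.4 and 102 to 286, 247 and 323 CPM (1.7 ± 0.21, adjusted p = 1.32e-05). Cpt1b, the muscle transporter that malonyl-CoA inhibits, was at 11.1 ± 2.28 against 5.91 ± 1.19 CPM and did not pass (0.91 ± 0.52, adjusted p = 0.275). Cd36, the fatty acid translocase, passed at 0.0240 but not without ADF_Crtc2 replicate 1 or 3, Fed_GFP replicate 1 or 2, or with library totals (adjusted p = 0.0680 to 0.139). The member that fell was Acsl5 (4.09 ± 1.79 against 21.5 ± 7.49 CPM).

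Among the dehydrogenases of the oxidation spiral, Acadvl, which takes the longest chains, rose from 73.1, 141 and 129 to 447, 386 and 359 CPM (1.80 ± 0.23, adjusted p = 2.25e-05). Acadm rose from 219 ± 47.9 to 549 ± 36.5 CPM, and Etfdh, which passes their electrons to ubiquinone, from 112 ± 36.0 to 318 ± 24.8 CPM. Pnpla2, the adipose triglyceride lipase, was at 1052, 686 and 911 CPM in ADF_Crtc2 and 166, 174 and 167 CPM in Fed_GFP (2.38 ± 0.20, adjusted p = 1.32e-07). It was at 1002, 703 and 635 CPM in ADF_GFP and at 241, 245 and 205 CPM in Fed_Crtc2. Plin5, which ties lipid droplets to mitochondria, was at 100, 46.8 and 82.9 CPM against 12.2, 17.7 and 15.4 CPM (2.34 ± 0.35, adjusted p = 8.90e-05), and Plin4 rose 4.04-fold. Genes of triglyceride and phospholipid synthesis had 5 rises and 1 fall among 20 and a median of 0.24 that became -0.07 with library totals. Gpam, the first step, rose from 54.3, 65.5 and 28.1 to 174, 266 and 244 CPM (2.21 ± 0.25, adjusted p = 5.48e-06). Dgat2, the last step, rose from 19.7 ± 5.92 to 93.8 ± 34.8 CPM (adjusted p = 0.0109), a call lost without Fed_GFP replicate 1 or 3 (0.0868 and 0.0612). The count of 5 was 3 without ADF_Crtc2 replicate 1 or 3, Fed_GFP replicate 1 or with library totals, and 2 without Fed_GFP replicate 3. The fall, Lpin2, at 1.43 ± 0.334 against 7.04 CPM, lost its call under 9 of 15 alternatives, among them leaving out any one ADF_Crtc2 replicate or Fed_GFP replicate 1 or 3 (0.0525 to 0.112). Of 14 fasting targets of PPAR factors 6 rose and none fell (median 1.47), including Ucp3, a mitochondrial carrier, from 120 ± 46.9 to 455 ± 49.6 CPM, and Vldlr from 154 ± 25.2 to 493 ± 113 CPM.

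**Figure D2:**
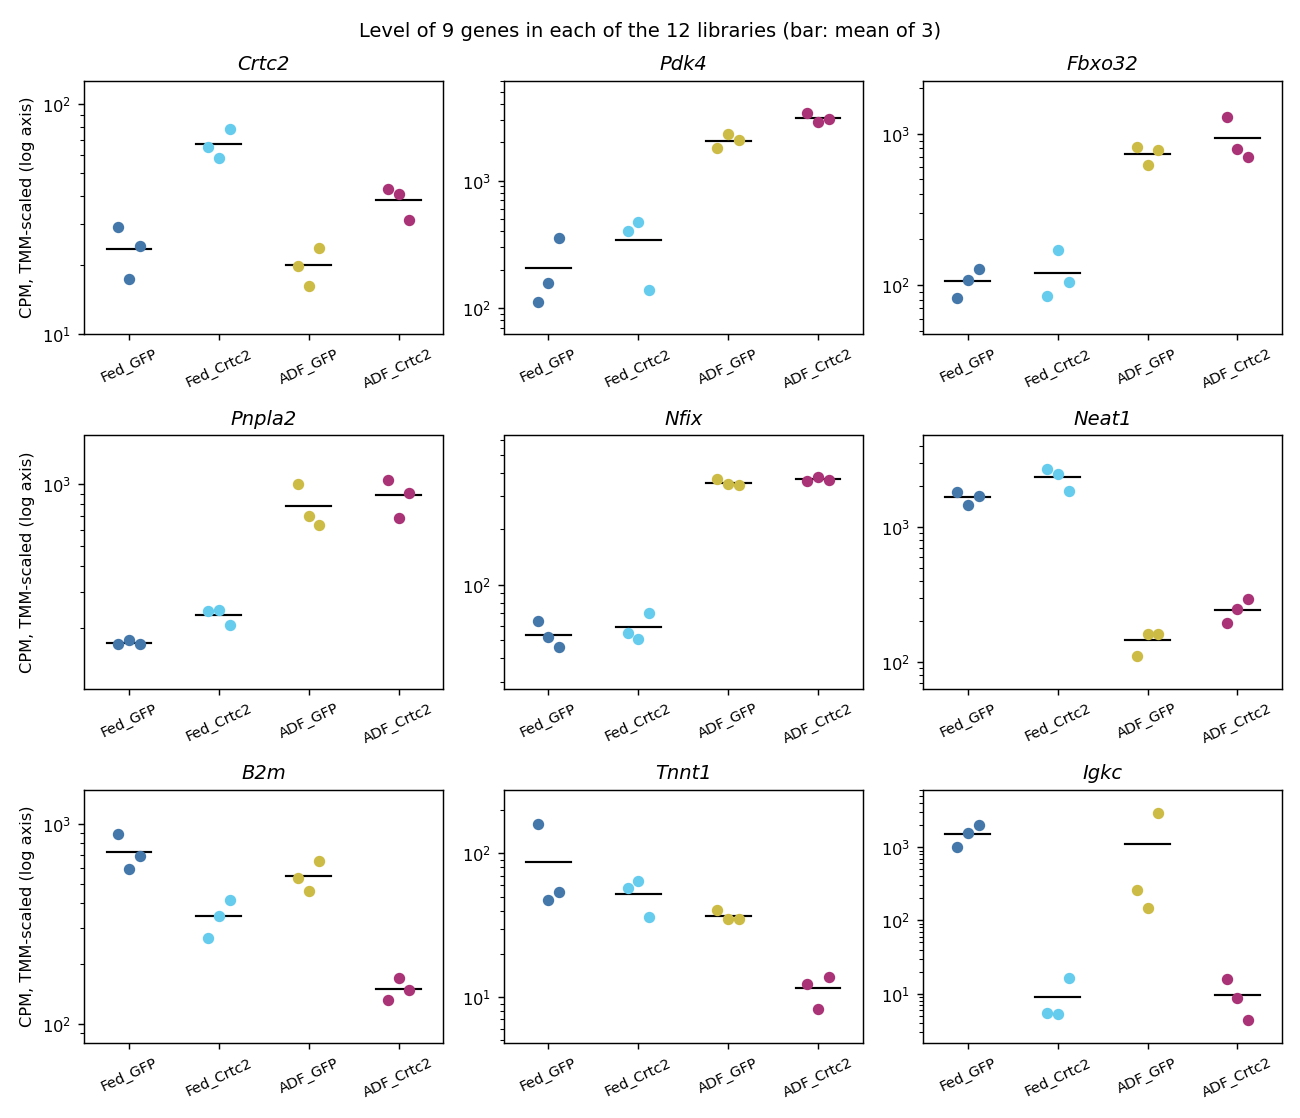
Level in CPM (log axis) of 9 genes in each of the 12 libraries, by group, with the mean of 3 as a bar. Pdk4, Fbxo32, Pnpla2 and Nfix are high and Neat1 is low in both fasted groups, Igkc is low in both Crtc2 groups, and B2m and Tnnt1 are lowest in the 3 ADF_Crtc2 libraries, with B2m at 133 to 170 CPM.

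Of 14 genes of the pyruvate dehydrogenase complex and its regulators 10 rose and none fell (median 1.01), although only 6 rose without ADF_Crtc2 replicate 3 or Fed_GFP replicate 1, and 5 with library totals. Pdk4, the kinase that inactivates the complex in fasting (chromosome 6, 5483351 to 5496309), was at 3398, 2897 and 3044 CPM in ADF_Crtc2 and at 111, 158 and 355 CPM in Fed_GFP, a 15-fold difference of means (3.90 ± 0.52, adjusted p = 0.000691). ADF_GFP lay between, at 1801, 2310 and 2067 CPM, and the step from ADF_GFP to ADF_Crtc2 did not pass (0.60 ± 0.46, adjusted p = 0.747). Fed_Crtc2 was at 403, 478 and 139 CPM. Pdk2 rose from 330 ± 51.8 to 1077 ± 7 CPM. Pdpr, the regulatory subunit of the phosphatase that reverses these kinases, rose in the same libraries, from 7.36, 19.9 and 3.98 to 196, 148 and 166 CPM (4.03 ± 0.65, adjusted p = 0.00240). The catalytic subunits of the complex rose less, Pdha1 from 565 ± 149 to 1228 ± 41.5 CPM and Dlat from 209 ± 79.1 to 496 ± 65.7 CPM.

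Glycogen genes rose in 13 of 19 cases and fell in none (median 1.23). Gys1, the muscle glycogen synthase, was at 1231, 1109 and 1061 CPM against 351, 344 and 378 CPM (1.66 ± 0.18, adjusted p = 2.53e-06). Ugp2, which makes its substrate, rose from 423 ± 82.8 to 1303 ± 110 CPM. Genes of breakdown rose too: Pygm, the muscle phosphorylase, from 5663 ± 1084 to 9837 ± 1033 CPM (0.80 ± 0.21, adjusted p = 0.0126, lost without ADF_Crtc2 replicate 2 or Fed_GFP replicate 3 at 0.0567 and 0.0816) and Gaa, the lysosomal glucosidase, from 77.5, 114 and 47.0 to 451, 336 and 299 CPM (2.19 ± 0.31, adjusted p = 0.000160). Synthesis and breakdown were thus raised in the same libraries. In the TCA cycle 9 of 19 genes rose and none fell (median 0.61), or 4 with library totals. Of all genes with means from 100 CPM upwards, 39.8% rose. Ogdh, the oxoglutarate dehydrogenase, was at 1714, 1711 and 1630 CPM against 499, 508 and 713 CPM (1.55 ± 0.18, adjusted p = 6.33e-06). In glucose uptake and glycolysis 5 of 23 rose, among them Tbc1d1, which governs glucose transporter traffic (74.1 ± 37.2 to 265 ± 21.6 CPM), and Fbp2 (40.0 ± 21.1 to 121 ± 38.6 CPM), which lost its call without Fed_GFP replicate 1 (0.0646). That count was 2 without Fed_GFP replicate 1, 3 without Fed_GFP replicate 3 or with library totals, and 8 with limma-voom.

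Of 36 complex I subunits of the respiratory chain 2 rose and 1 fell (median -0.17), and of 35 subunits of complexes III, IV and the ATP synthase 4 rose and none fell (median -0.15). The rises included Uqcrc1, Cox5a, Atp5b, Ndufs1 (376 ± 54.0 to 573 ± 12.4 CPM) and Atp5a1 (2429 ± 320 to 4428 ± 132 CPM), and the fall was Ndufb7 (410 ± 51.2 to 268 ± 27.2 CPM). These counts depend on the scale: with library totals 15 complex I subunits fell and none rose, and 14 of the other subunits fell and 1 rose. Of all libraries left out in turn, Fed_GFP replicate 2 was the only one without which complex I kept a riser, and Ndufb7 lost its call without ADF_Crtc2 replicate 1 or 2 or Fed_GFP replicate 1. The other list had 2 rises without ADF_Crtc2 replicate 3 or Fed_GFP replicate 1. Of 53 cytosolic ribosomal protein genes 7 fell and none rose (median -0.33), which became 29 with library totals, 22 when only genes of at least 10 CPM were tested, and 3 without ADF_Crtc2 replicate 2 or 3 or Fed_GFP replicate 1.

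Of 19 atrophy ligases and FoxO targets 10 rose and none fell (median 1.02). Fbxo32, known as atrogin-1, was at 1295, 795 and 702 CPM in ADF_Crtc2 and at 81.5, 108 and 128 CPM in Fed_GFP (3.13 ± 0.28, adjusted p = 7.33e-07). Trim63, known as MuRF1, was at 1098, 523 and 327 CPM against 178, 180 and 174 CPM (1.88 ± 0.33, adjusted p = 0.00174). Replicate 1 of ADF_Crtc2 was the highest of its group for both ligases, and the fed libraries varied little for Trim63. Klf15, a factor that glucocorticoids induce and that drives amino acid breakdown, rose from 12.2, 27.9 and 16.1 to 152, 104 and 102 CPM (2.67 ± 0.30, adjusted p = 4.24e-06), and Ddit4, an inhibitor of mTORC1, from 12.1 ± 4.09 to 61.6 ± 19.5 CPM. In autophagy and lysosome 13 of 30 rose and none fell (median 0.30), or 8 with library totals. Beside this count and that of the proteasome stand rises of 6.85% over all genes tested, 8.5% at 10 to 100 CPM and 39.8% from 100 CPM upwards. Neither list was matched for level. Atg9a, the membrane protein of early autophagosomes, was at 132, 118 and 114 CPM against 6.89, 16.1 and 18.6 CPM (3.13 ± 0.30, adjusted p = 7.59e-07), while Ulk1, Wipi1, Bnip3 and Map1lc3b rose by 1.63, 1.59, 1.32 and 1.09. Proteasome subunits had 7 rises in 31 and a median of 0.17. Library totals gave 2 rises, 4 falls and a median of -0.13 there, and 4 rose without ADF_Crtc2 replicate 1 or 2 or Fed_GFP replicate 3. All 7 rises were subunits of the regulatory cap, led by Psmd1 (55.2 ± 12.2 to 153 ± 31.4 CPM).

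Of 17 glucocorticoid targets 7 rose and none fell (median 0.33). Klf9 was at 216, 207 and 198 CPM against 30.0, 58.3 and 32.3 CPM (2.36 ± 0.27, adjusted p = 5.40e-06), Zbtb16 at 172, 94.2 and 64.3 against 26.5, 27.0 and 21.1 CPM (2.15 ± 0.31, adjusted p = 7.50e-05) and Cebpd at 50.4, 19.2 and 28.1 against 3.23, 6.56 and 5.86 CPM (2.64 ± 0.45, adjusted p = 0.000424). None of these overlapped between groups, but they were picked from genes that passed, so this was likely beforehand. Of all 17 targets 9 did not overlap, counted in both directions. Over all genes tested, 15.4% were higher and 14.3% lower without overlap. Fkbp5, a cochaperone of the glucocorticoid receptor, passed (2.68 ± 0.58, adjusted p = 0.0109) but not without Fed_GFP replicate 1 (0.0724). Others of the list, Sgk1, Errfi1 and the receptor gene Nr3c1, had log2 fold changes of 0.01, 0.00 and -0.12.

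Of 26 insulin, IGF and mTORC1 genes 9 rose and 1 fell (median 0.70), with 5 rises under library totals and 3 without ADF_Crtc2 replicate 1. Eif4ebp2, which holds back translation when mTORC1 is off, was at 96.4, 64.0 and 68.1 CPM against 1.22, 2.48 and 0.505 CPM, a 54.3-fold difference of means (5.76 ± 0.67, adjusted p = 5.58e-05). It was at 76.9, 55.3 and 61.2 CPM in ADF_GFP and at most 3.52 CPM in Fed_Crtc2. Insr rose from 42.9 ± 10.6 to 88.7 ± 21.3 CPM and Tsc1 from 35.4 ± 4.58 to 81.4 ± 28.9 CPM, both lost without ADF_Crtc2 replicate 1 (0.0537 and 0.0546). The kinases Akt1 and Akt2 and the mTORC1 activator Rheb rose by 0.71, 0.84 and 0.85, calls that all ended with library totals (adjusted p = 0.208, 0.0544 and 0.135) and, with some single libraries left out, at 0.0519 to 0.123. Igf2 fell from 142 ± 49.2 to 65.4 ± 14.9 CPM, and Igf1 was at 7.24 ± 3.99 against 22.7 ± 5.32 CPM (adjusted p = 0.237). Among regulators of mitochondrial genes 7 of 21 rose and none fell (median 0.62), with Perm1 from 230 ± 37.0 to 509 ± 27.0 CPM and the nuclear receptors Ppard and Esrra raised by 1.61 and 0.82, the latter lost without ADF_Crtc2 replicate 3 (0.0846). In branched-chain amino acid breakdown 6 of 19 rose and none fell (median 0.62), with Bckdha, of the rate-limiting complex, from 30.8 ± 11.8 to 100 ± 9.30 CPM. Clock genes had 3 rises and 3 falls among 19 and a median of 0.14 that was -0.16 with library totals: Per1 rose by 1.25, whereas Per3 fell from 91.4, 65.6 and 80.4 to 17.8, 32.9 and 20.2 CPM (-1.74 ± 0.30, adjusted p = 0.000426) and Per2 and Dbp fell by 1.96 and 1.03. Per1 lost its call with library totals (0.0572) and without ADF_Crtc2 replicate 1 or Fed_GFP replicate 2 or 3 (0.0627 to 0.0916), and Dbp without ADF_Crtc2 replicate 1 (0.0775). Without ADF_Crtc2 replicate 1 or with library totals 1 clock gene was higher, and 5 were higher with no filter on low counts. Heat shock genes had 5 rises in 19 and a median of 0.18, or -0.10 with library totals, with the small heat shock protein gene Hspb7 going from 551 ± 32.6 to 1932 ± 540 CPM.

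**Figure D3:**
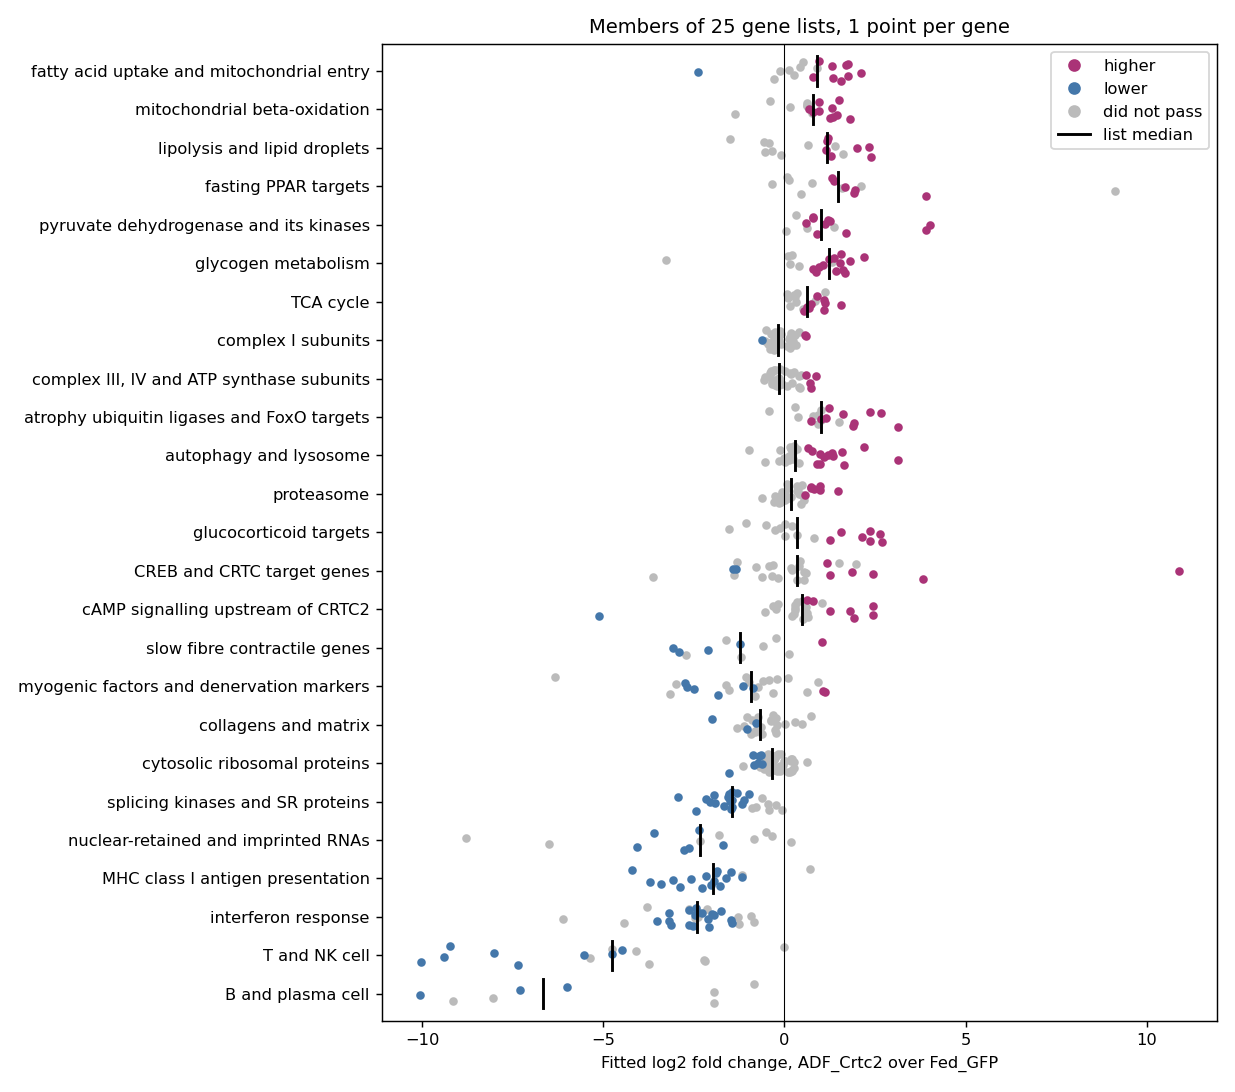
Each point is a gene of 1 of 25 lists at its fitted log2 fold change, ADF_Crtc2 over Fed_GFP, with the list median as a black bar; purple points were higher, blue points lower, and grey points did not pass. Lists of fuel use and atrophy ligases lie to the right, and those of autophagy and the proteasome only slightly so, with medians of 0.30 and 0.17. Those of splicing, antigen presentation, the interferon response and lymphocytes lie to the left, and the respiratory chain near 0, with medians of -0.17 and -0.15. All genes with means from 100 CPM upwards had a median of 0.445.

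Of 13 fast fibre genes of the contractile machinery 1 rose and 1 fell (median -0.04), and 4 fell with library totals. The fall, Mylpf, lost its call without any one ADF_Crtc2 replicate and without Fed_GFP replicate 1. The riser was Atp2a1, the calcium pump of fast fibres, at 39020, 33860 and 31450 CPM against 12140, 11590 and 9882 CPM (1.63 ± 0.19, adjusted p = 4.57e-06). The gene for the main fast myosin, Myh4, was at 28630 ± 4509 against 34410 ± 10910 CPM (adjusted p = 0.724). Of 11 slow fibre genes 4 fell and 1 rose (median -1.22). Their summed level was higher, at 4718 to 5755 CPM against 2730 to 3024 CPM, and most of it came from the riser Mybpc1. Tnnt1, slow troponin T, was at 12.4, 8.33 and 13.9 CPM against 159, 47.7 and 54.0 CPM (-2.91 ± 0.39, adjusted p = 5.40e-05), and Tnni1, slow troponin I, at 12, 19 and 13.5 against 73.1, 64.2 and 56.7 CPM (-2.12 ± 0.33, adjusted p = 0.000167). Both were also lower than in ADF_GFP (-1.66 ± 0.38, adjusted p = 0.0454, and -1.67 ± 0.33, adjusted p = 0.0153). Without any one of the 6 libraries Tnnt1 lost that call (0.0960 to 0.186), and Tnni1 lost it without ADF_GFP replicate 3 or ADF_Crtc2 replicate 1 or 3 (0.0761 to 0.137). Tnnc1 and Casq2 fell by 3.07 and 1.22, whereas Mybpc1 rose from 2350 ± 175 to 4836 ± 562 CPM. The slow myosin gene Myh7 was low everywhere, at 6.22 ± 7.67 against 14.3 ± 11.9 CPM, and did not pass.

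Of 21 genes of calcium release and excitation coupling 8 rose and 3 fell (median 0.43), with 4 rises and 5 falls under library totals and 5 rises without ADF_Crtc2 replicate 1 or Fed_GFP replicate 3. Ryr1, the calcium release channel, was at 5029, 3962 and 4007 CPM against 1913, 1659 and 1384 CPM (1.39 ± 0.19, adjusted p = 3.79e-05), and its voltage sensor Cacna1s rose from 302 ± 52.9 to 872 ± 130 CPM. Sln, the peptide that uncouples the calcium pump, fell from 117 ± 11 to 35.1 ± 7.57 CPM. Of 24 myogenic factors and genes of immature or denervated fibres 6 fell and 2 rose (median -0.93). Chrne, a subunit of the acetylcholine receptor, was at 5.53, 6.87 and 2.45 CPM against 42.2, 34.7 and 22.6 CPM (-2.74 ± 0.51, adjusted p = 0.000833). Embryonic myosin Myh3 was at 29.8, 41.5 and 14.7 against 247, 114 and 124 CPM (-2.50 ± 0.51, adjusted p = 0.00664), and Myog at 4.23, 6.71 and 11.9 against 39.8, 24.8 and 17.8 CPM (-1.85 ± 0.42, adjusted p = 0.00451). The fusion gene Mymk fell by 2.69. Myog and Mymk were lower than in ADF_GFP too (adjusted p = 0.0409 and 0.0157), calls that both ended without ADF_GFP replicate 1 or 3 or ADF_Crtc2 replicate 1 or 2 (0.0611 to 0.206). The rises were Mef2c and Mef2d, factors of mature fibres. None of 6 satellite cell markers passed, and their summed level was 19.8 to 23.3 CPM against 24.8 to 34.1 CPM.

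Of 26 splicing kinases and SR proteins 19 fell and none rose (median -1.44). Rsrp1, an arginine and serine rich protein, was at 97.8, 92.7 and 79.9 CPM against 758, 613 and 721 CPM (-2.95 ± 0.19, adjusted p = 6.48e-09). Clk1, the kinase that frees SR proteins from speckles, was at 16.6 ± 4.12 against 90.5 ± 25.9 CPM, and Srsf5 at 47.9, 65.5 and 77.3 against 297, 181 and 238 CPM (-1.91 ± 0.21, adjusted p = 4.15e-06). Of 14 nuclear-retained or imprinted RNAs 6 fell and none rose (median -2.34). Neat1, the scaffold of paraspeckles (chromosome 19, 5824708 to 5845478), was at 194, 245 and 291 CPM against 1810, 1458 and 1695 CPM (-2.77 ± 0.21, adjusted p = 3.48e-08), and Malat1 at 71.9, 51.1 and 64.7 against 497, 348 and 327 CPM (-2.64 ± 0.29, adjusted p = 7.30e-06). Neat1 was at 112, 162 and 160 CPM in ADF_GFP and at 2705, 2478 and 1838 CPM in Fed_Crtc2. The low levels were thus in the fasted libraries of both vectors. Outside these lists, Pnisr and Ddx17, further RNA-processing genes, were at 24.5 ± 0.910 and 26.5 ± 5.36 CPM against 217 ± 41.3 and 205 ± 16.1 CPM. The share of detectable genes at 0, a sign of library complexity, overlapped: for genes averaging 1 to 3 CPM it was 21.6 to 30.1% in ADF_Crtc2 and 12.1 to 32.7% in Fed_GFP. That share covers genes of low level only, and the part of library preparation in the falls above was not tested.

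Of 18 genes of MHC class I presentation 16 fell and none rose (median -1.98). B2m, the invariant chain of class I molecules, was at 133, 170 and 147 CPM in ADF_Crtc2 and at 894, 592 and 688 CPM in Fed_GFP (-2.27 ± 0.21, adjusted p = 3.82e-07). H2-K1, a heavy chain, was at 108, 156 and 102 CPM against 1186, 732 and 784 CPM (-2.88 ± 0.37, adjusted p = 0.000190). Nlrc5, the transactivator of class I genes, was at 3.71, 1.90 and 1.64 CPM against 65.4, 30.8 and 37.3 CPM (-4.21 ± 0.53, adjusted p = 1.57e-05). The groups did not overlap for these 3 genes, which was likely beforehand, since they were picked from genes that passed. Of all 18 genes of the list 17 did not overlap, counted in both directions. Over all genes tested, 14.3% were lower and 15.4% higher without overlap. The 2 members that did not pass were the immunoproteasome subunit Psmb9 (-1.18) and the peptidase Erap1 (0.70). Heavy chain genes of the H2 cluster are near copies of each other, so how reads were split among them is uncertain. B2m was also lower than in ADF_GFP (534, 464 and 655 CPM, -1.88 ± 0.20, adjusted p = 0.000122) and than in Fed_Crtc2 (269, 348 and 418 CPM, -1.20 ± 0.20, adjusted p = 0.000352). H2-K1 passed in both as well, at -2.25 ± 0.37 and -1.80 ± 0.36 (adjusted p = 0.0123 and 0.00505), the first lost without ADF_GFP replicate 1 or 3 or ADF_Crtc2 replicate 1 or 3 (0.0622 to 0.110). Whether diet and vector together did more than their sum was not shown, since the test of diet by vector gave adjusted p of 0.537 and 0.620.

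Of 30 interferon response genes 17 fell and none rose (median -2.42), or 10 without Fed_GFP replicate 1, which was the highest fed library for Irf7 and Gbp3. Irf7, the factor that amplifies the response, was at 0.734, 3.91 and 10.9 CPM against 76.6, 26.8 and 32.3 CPM (-3.12 ± 0.73, adjusted p = 0.0112), a call lost without ADF_Crtc2 replicate 2 (0.0718). Gbp3, a guanylate-binding protein, was at 5.05, 6.32 and 6.19 against 46.4, 24.7 and 26.2 CPM (-2.47 ± 0.38, adjusted p = 0.000133) and was lower than in ADF_GFP too (-2.38 ± 0.38, adjusted p = 0.00625). Stat2 and Irf1 fell by 2.52 and 2.65. Isg15 and Mx1, with log2 fold changes of -4.42 and -6.10, did not pass.

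Summed markers of lymphocytes, macrophages and dendritic cells were low in the same libraries. Those of neutrophils overlapped, at 7.39 to 16.1 CPM in ADF_Crtc2 and 6.27 to 24.4 CPM in Fed_GFP. The summed level of 15 T and NK cell markers was 6.22 to 9.01 CPM in ADF_Crtc2 and 80.2 to 202 CPM in Fed_GFP, and 8 of the 15 fell. Cd3g, a chain of the T cell receptor complex, had no count in any ADF_Crtc2 library against 5.47, 5 and 3.34 CPM (at least 38.9-fold lower with a floor of 3 counts per library, adjusted p = 0.000708). The count of 8 was 4, 2 and 3 without ADF_Crtc2 replicate 1, 2 and 3, 2 without Fed_GFP replicate 1, and 5 when the fit held only the 6 libraries. The list median was -4.76, and -4.70 once genes absent from 1 group took the value of their bound. Gzma was at 0 in both groups. Of 14 macrophage markers 3 fell and 1 rose (summed level 221 to 309 against 451 to 536 CPM): Cd68, Csf1r and C1qc fell by 1.89, 1.05 and 1.34, and Lyve1, at 3.33, 1.5 and 2.85 CPM against 0.0394, 0 and 0 CPM, rose. Csf1r lost its call without ADF_Crtc2 replicate 1 or 3 or Fed_GFP replicate 1 or 3 (0.0789 to 0.176), and Lyve1 without Fed_GFP replicate 2 or 3 (0.0511 and 0.0517). Of 9 markers of dendritic cells and MHC class II 3 fell, with summed levels of 257 to 369 against 634 to 1057 CPM, a count that was 1 without ADF_Crtc2 replicate 2 or 3 or Fed_GFP replicate 1. Among defining markers, Cd8b1, Gzmb and Cd79b were at 0 in every ADF_Crtc2 library, as were Cd79a and Ms4a1, which did not pass. Of all 16007 genes tested, 901 were at 0 in every ADF_Crtc2 library. Cd8b1 and Gzmb lost their calls with limma-voom (0.200 and 0.204) and without any one ADF_Crtc2 replicate (0.104 to 0.116). The part of these cells in the fall of class I and interferon genes was not tested.

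**Figure D4:**
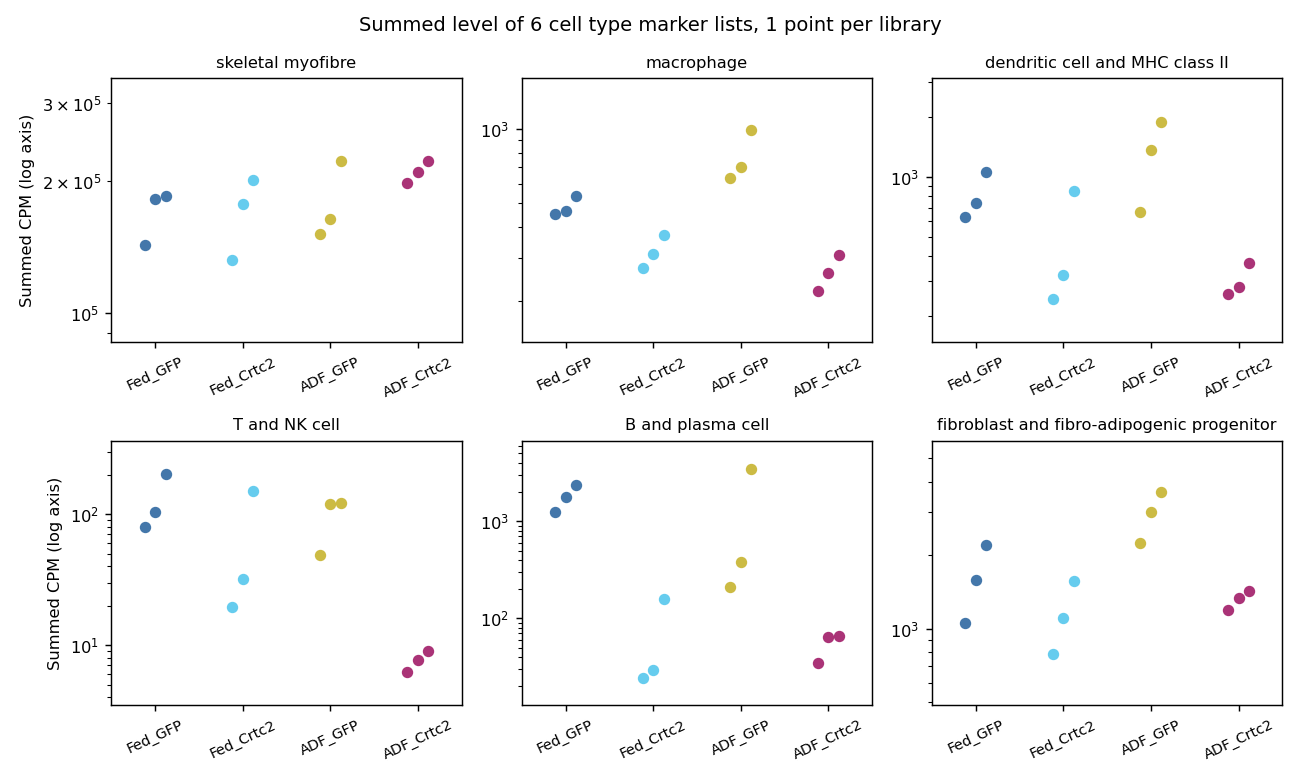
Summed CPM (log axis) of 6 marker lists in each of the 12 libraries, by group. T and NK cell markers are lowest in ADF_Crtc2 at 6.22 to 9.01 CPM, B and plasma cell markers are below those of all GFP libraries in both Crtc2 groups, and myofibre markers are at 197600 to 221800 CPM in ADF_Crtc2.

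Immunoglobulin transcripts were nearly absent from ADF_Crtc2. The constant gene Igkc was at 16.0, 8.73 and 4.37 CPM in ADF_Crtc2 and at 1014, 1558 and 2018 CPM in Fed_GFP, a 158-fold difference of means (-7.31 ± 1.42, adjusted p = 0.0109). Ighg1 had 5 counts over the 3 ADF_Crtc2 libraries against 34453 over the Fed_GFP libraries (82.4, 274 and 819 CPM; adjusted p = 0.00622), and Ighg2c was at 8.51, 2.41 and 2.85 against 653, 698 and 1029 CPM. The groups did not overlap for these genes either, which was a term of their choice as largest falls. The same low level was seen in Fed_Crtc2, at 5.51, 5.23 and 16.4 CPM of Igkc. The ADF_GFP libraries, at 258, 146 and 2917 CPM, lay above those of both Crtc2 groups. Those at 258 and 146 CPM were below every Fed_GFP library, so the high level under fasting rests on 1 library. ADF_Crtc2 and Fed_Crtc2 did not differ detectably (0.10 ± 1.11, adjusted p = 0.983), and the difference from ADF_GFP did not pass (-6.84 ± 1.39, adjusted p = 0.0839). Over 45 immunoglobulin genes and segments, a class chosen by symbol after values were seen, 15 fell and 24 had no count in ADF_Crtc2. Their summed level was 43.1 to 71.7 CPM there, 29.6 to 162 CPM in Fed_Crtc2, 398 to 8959 CPM in ADF_GFP and 2114 to 4834 CPM in Fed_GFP. These calls rest on few libraries: Igkc lost its call without ADF_Crtc2 replicate 2 (0.0525), Ighg1 with limma-voom (0.133), and Ighg2c with limma-voom (0.168) and without any one ADF_Crtc2 replicate (0.0594 to 0.0821). Segments of this multigene family share sequence, so single segments are uncertain. Of 8 B and plasma cell markers 3 fell, or 1 without ADF_Crtc2 replicate 2, with a median of -6.65 that became -3.85 at the bounds.

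Of 11 endothelial markers 2 fell, Egfl7 (30.2, 35.1 and 36.1 against 121, 72.5 and 156 CPM, -1.78 ± 0.25, adjusted p = 6.19e-05) and Kdr, with 4 falls without ADF_Crtc2 replicate 3 and 5 without Fed_GFP replicate 2 or with library totals. Vegfa, the growth factor that the latter receptor binds, fell from 477, 316 and 400 to 179, 179 and 216 CPM (-1.06 ± 0.19, adjusted p = 0.000628). Of 9 smooth muscle and pericyte markers 3 fell, or 1 without Fed_GFP replicate 1, with Acta2 at 27.2, 28.5 and 32.5 against 134, 64.3 and 108 CPM (-1.80 ± 0.25, adjusted p = 4.11e-05). Of 10 fibroblast markers Cd34 and Ly6a fell, the former not without ADF_Crtc2 replicate 1 or 3 or Fed_GFP replicate 3, and of 26 collagen and matrix genes 3 fell (median -0.69). That matrix count was 0 without ADF_Crtc2 replicate 1 or Fed_GFP replicate 1, 1 without ADF_Crtc2 replicate 3, and 6 without Fed_GFP replicate 2. No marker of Schwann cells or erythrocytes passed, at 9 and 6 tested, and 1 of 7 adipocyte markers rose, Cfd, a call lost without ADF_Crtc2 replicate 1 or Fed_GFP replicate 1 or 3. Of 22 cell cycle genes 4 fell, or 2 without Fed_GFP replicate 3 (median -2.08, and -1.90 at the bounds). Cdk1 had 2 counts over the ADF_Crtc2 libraries against 896 over the Fed_GFP libraries (10.3, 1.29 and 20.1 CPM, adjusted p = 0.00429).

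By the size of the fitted change, the largest rises began with genes at or near 0 in Fed_GFP. Ccdc85c had no Fed_GFP count and was at 11.2, 11.9 and 11.1 CPM in ADF_Crtc2 (at least 106-fold higher, adjusted p = 0.000661). Pm20d2, a peptidase, was at 29.4, 16.5 and 13.6 CPM against 0, 0.272 and 0 CPM (adjusted p = 0.00673). Both were present in ADF_GFP, at 6.51, 4.21 and 6.24 and at 17.6, 6.75 and 15.4 CPM. Among abundant genes, Lars2, the mitochondrial leucyl-tRNA synthetase, was at 1336, 1473 and 1177 CPM against 159, 114 and 125 CPM (3.32 ± 0.22, adjusted p = 6.58e-09). Nfix, a transcription factor, was at 362, 381 and 366 against 63.4, 51.9 and 45.9 CPM (2.78 ± 0.19, adjusted p = 6.58e-09). Fam134b, a receptor for autophagy of the endoplasmic reticulum, was at 617, 431 and 468 against 44.5, 43.0 and 86.2 CPM (3.13 ± 0.37, adjusted p = 6.76e-05). Among the largest falls outside the immunoglobulins, Lilrb4a, an inhibitory receptor of myeloid cells, had no ADF_Crtc2 count against 4.57, 11.1 and 7.41 CPM (at least 65.1-fold lower, adjusted p = 0.00117). Ubd, a ubiquitin-like protein induced by interferon, was at 0 against 8.78, 6.60 and 6.60 CPM (at least 62-fold lower, adjusted p = 0.00550). Spag1 was at 0 against 15.2, 2.11 and 10.6 CPM (at least 78.8-fold lower, adjusted p = 0.00198).

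The other 2 groups place the combined change. ADF_GFP against Fed_GFP gave 1140 calls (7.12%), of which 650 were higher (4.06%) and 490 lower (3.06%), and Fed_Crtc2 against Fed_GFP gave 0, with 871 genes at an unadjusted p under 0.05 in edgeR and 64 calls by DESeq2. All 3 comparisons share the Fed_GFP libraries, so their values are not independent. The difference between ADF_Crtc2 and ADF_GFP, in which that control cancels, gave 116 calls (0.725%), 12 higher (0.075%) and 104 lower (0.65%). That count was 25 without ADF_GFP replicate 3 or ADF_Crtc2 replicate 1, 69 without ADF_GFP replicate 1, 51 without ADF_Crtc2 replicate 3, and 556 by DESeq2. Library complexity did not overlap between ADF_Crtc2 and ADF_GFP. Of genes averaging 1 to 3 CPM, 21.6 to 30.1% were at 0 in ADF_Crtc2 libraries and 5.87 to 19.4% in ADF_GFP libraries. The part of complexity in these calls, most of them lower, was not tested. The difference between ADF_Crtc2 and Fed_Crtc2 gave 1758 calls (11%), of which 1009 were higher (6.3%) and 749 lower (4.68%), or 1129 calls without ADF_Crtc2 replicate 1. The test of diet by vector, which asks whether the combined log2 change departs from the sum of both single ones, gave 0 calls in edgeR, with 1240 genes at an unadjusted p under 0.05, and 111 calls by DESeq2.

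The median log2 fold changes of the lists, in ADF_Crtc2, ADF_GFP and Fed_Crtc2 against Fed_GFP, were 0.80, 0.63 and 0.01 for beta-oxidation, 1.02, 0.95 and 0.07 for atrophy genes, and -1.44, -1.40 and 0.20 for splicing genes. For MHC class I genes they were -1.98, -0.55 and -0.77, for the interferon response -2.42, -0.89 and -0.36, and for slow fibre genes -1.22, -0.70 and -0.73. Collagen and matrix genes had medians of -0.69, 0.79 and -0.42, and complex I subunits -0.17, -0.67 and 0.04. In the direct difference between ADF_Crtc2 and ADF_GFP, 6 class I genes, 2 interferon genes, 2 slow fibre genes, 4 matrix genes and 5 macrophage markers were lower, 1 complex I gene was higher, and no beta-oxidation, atrophy or splicing gene passed. Csf1r, the receptor that macrophages depend on, was at 13.0 ± 4.38 CPM in ADF_Crtc2 against 52.1 CPM in ADF_GFP (-2.0 ± 0.33, adjusted p = 0.00646), and Mmp2, a gelatinase of the matrix, at 43.0, 48.0 and 77.7 against 144, 220 and 196 CPM (-1.73 ± 0.25, adjusted p = 0.00312), while Fed_GFP had 62.6, 66.6 and 87.2 CPM. Summed macrophage markers were 630 to 988 CPM in ADF_GFP and 274 to 370 CPM in Fed_Crtc2, and their part in these differences was not tested. Of the 12 genes higher in ADF_Crtc2 than in ADF_GFP 6 were at least 2-fold and none 4-fold higher, among them Nmnat1, which makes NAD in the nucleus, at 58.2, 40.9 and 50.4 against 18.6, 21.6 and 23.4 CPM (1.23 ± 0.26, adjusted p = 0.0258), and Acyp2, the muscle acylphosphatase, at 205, 191 and 172 against 104, 98.3 and 104 CPM (0.89 ± 0.17, adjusted p = 0.0152). Both calls ended with library totals and without ADF_GFP replicate 2 or 3 or ADF_Crtc2 replicate 1.

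**Figure D5:**
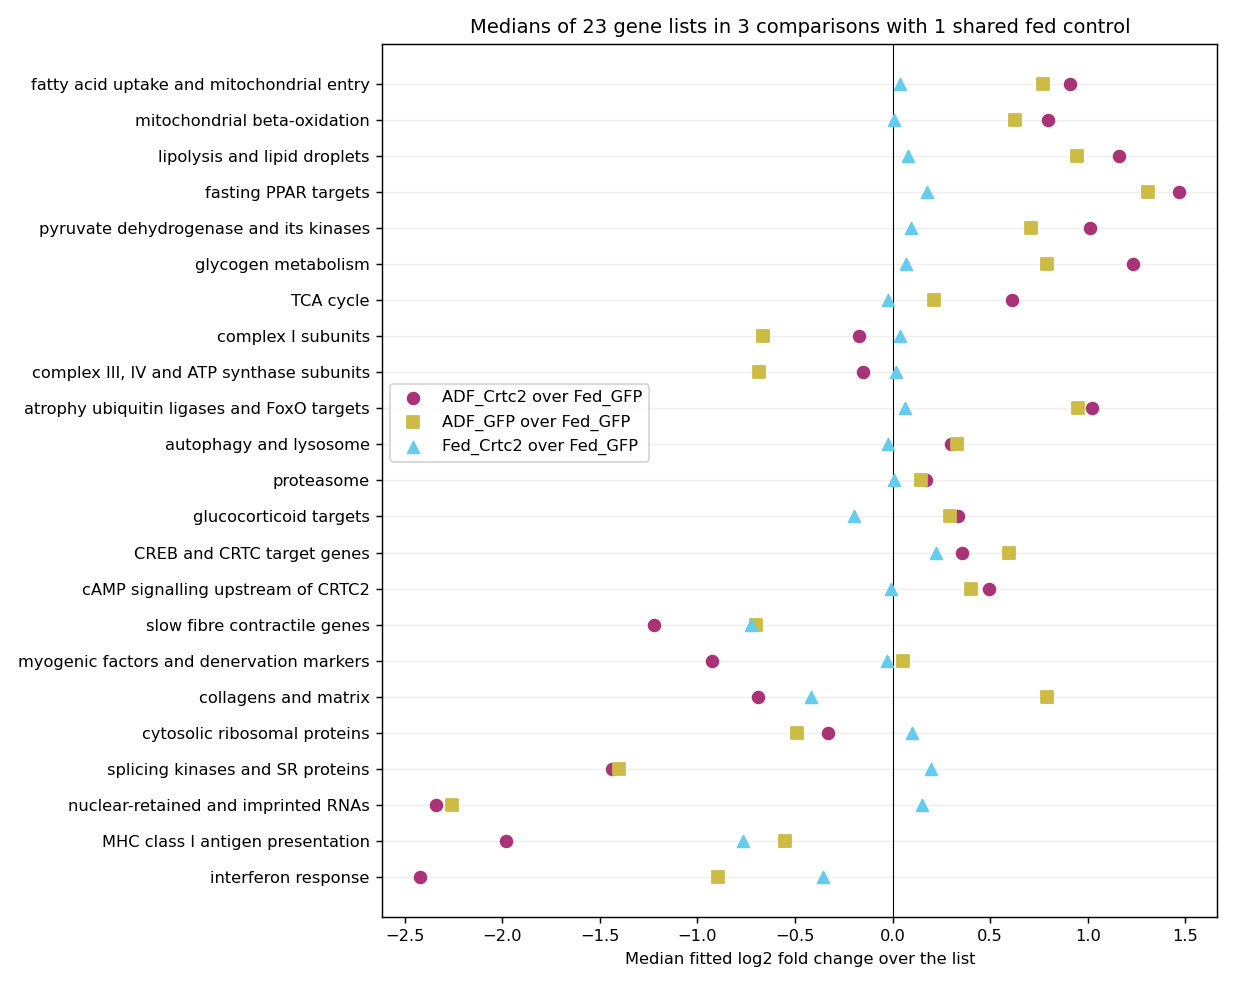
Median fitted log2 fold change of 23 lists in ADF_Crtc2, ADF_GFP and Fed_Crtc2, each over the same Fed_GFP libraries, so the 3 marks of a row are not independent. The marks of both fasted groups lie close for splicing genes (-1.44 and -1.40) and apart for MHC class I genes (-1.98 and -0.55) and matrix genes (-0.69 and 0.79).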

How the data were processed

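The 12 libraries, 3 in each of 4 groups, hold mRNA of the tibialis anterior, and the authors deposited 1 table of read counts per gene. Reads were aligned with HISAT2 2.0.5 to GRCm38 (mm10), handled with SAMtools 1.7 and counted with featureCounts of Subread 1.6.1, per the submitters' processing notes, which also name DESeq2 1.18.1. The deposited counts were used as they were; each column was matched to a sample by its title. Genes were kept by filterByExpr and fitted with edgeR 4.0.16 (TMM, robust quasi-likelihood, 4 group means, 8 residual degrees of freedom, R 4.3.3). SE is the log2 fold change over the square root of F. Of 22607 genes, 22582 had a position in the annotation given here (GENCODE vM21). An exact test of 3 against 3 libraries cannot go below p = 0.1. Alternatives were other scales and filters, DESeq2 1.42.0, limma-voom (limma 3.58.1), a replicate block, gene length offsets, fits of the libraries compared alone, and leaving out each replicate. With 1 library of a group left out, 2 remain in that group and the spread is pooled over groups.

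Genes named in the text are the CREB family, the 10 largest changes each way among genes of at least 2 CPM and of at least 100 CPM that passed without overlap, in each of 39 gene lists and 14 marker lists the 4 members of smallest adjusted p and all others that passed, a fixed set of muscle genes, and the 5 smallest adjusted p each way against ADF_GFP. Btg2, Dusp1, Erap1, Errfi1, Gzma, Isg15, Ms4a1, Mx1, Nr3c1, Psmb9 and Sgk1 fell outside this rule and were chosen after their values were seen. The comparison, lists and markers were chosen with earlier results of these data known. Of 931 listed genes 920 were tested; a gene under the filter was left out of its list's counts. Of counts between 2 and 21, 68.9 to 74.7% per library were even, so many fragments may have been counted once per mate; a floor of 3 counts can then stand for fewer fragments. Floors cover counting error only.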

Additional observations from a re-analysis of the deposited data

How the results depend on the processing

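The 1978 calls between ADF_Crtc2 and Fed_GFP ranged from 1599, with only the 6 libraries in the fit, to 2865 by DESeq2, and from 1350 to 2118 with 1 library left out (762 to 1167 higher, 588 to 951 lower). With library totals 594 genes were higher and 1398 lower, and DESeq2 gave 1575 lower. The 116 calls between ADF_Crtc2 and ADF_GFP became 385 with no filter on low counts, 556 by DESeq2, 68 with limma-voom, 300 with only the 6 libraries of both groups, and 25 to 90 with 1 library left out. The 1758 calls against Fed_Crtc2 became 1129 to 1456 with 1 library left out. Diet by vector gave 0 calls, 67 with no filter, 111 by DESeq2, and 0 to 3 with 1 library left out; the cause of these differences was not tested, beyond the smaller number of libraries or larger number of genes that some of them use. With the replicate number as a block, 1913 genes passed for ADF_Crtc2 against Fed_GFP, 106 against ADF_GFP and 1664 against Fed_Crtc2. Same-numbered libraries of ADF_Crtc2 and Fed_GFP had correlated deviations of only -0.0358 to 0.0824, so they share a number and are not taken as pairs. No named gene changed sign where it passed in the main fit or in the alternative. Some that passed in neither did, such as Sik1, with log2 fold changes from -0.499 to 0.382. Of the results for single named genes under the alternatives, 5582 stayed on their side of the threshold, 559 lost and 63 gained a call. Depth limits genes of low level: 3 counts were 0.101 to 0.130 CPM in these 6 libraries.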

Other observations

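Some groups of genes not described above moved little or in both directions. Of 15 lipogenic genes 3 fell and none rose (median -0.86): the desaturase gene Scd2 from 34.1 ± 3.62 to 11.8 ± 6.33 CPM, Thrsp from 49.6 ± 11.2 to 22.3 ± 9.09 CPM, neither of them stable to leaving out a library, and Mlxipl, which encodes the glucose-sensing factor ChREBP, from 118, 83.2 and 140 to 57.9, 58.6 and 42.9 CPM (-1.10 ± 0.25, adjusted p = 0.00511). Fasn was at 13.4 ± 5.41 against 12.1 ± 6.09 CPM and did not pass. Of 16 cholesterol synthesis genes 1 rose, Fdft1, from 52.5 ± 13.8 to 147 ± 24.8 CPM. Of 18 genes of the integrated stress response 1 rose, Ppp1r15a (19.5 ± 6.36 to 59.4 ± 22 CPM), and 1 fell, Ddit3 (45.2 ± 6.18 to 15 ± 3.40 CPM). Of 21 NRF2 and antioxidant genes 3 rose, among them catalase, Cat, from 60.6 ± 8.61 to 175 ± 18.0 CPM, and the median of 0.24 was -0.06 with library totals. Of 17 myokine genes Vegfa alone passed, and Mstn, which restrains muscle growth, was at 20.3 ± 3.36 against 9.37 ± 3.5 CPM (adjusted p = 0.131). Of 4 neutrophil markers S100a8 fell, and of 6 tendon markers Thbs4 fell; without ADF_Crtc2 replicate 1 or 3 neither passed.

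Mir6236, a locus of 123 bases annotated as a miRNA hairpin, was counted at 294, 286 and 266 CPM in ADF_Crtc2 against 29.1, 14 and 16.4 CPM in Fed_GFP (3.83 ± 0.33, adjusted p = 4.92e-07), and at 308, 116 and 229 CPM in ADF_GFP. A library of mRNA does not measure a mature miRNA, and which transcript these reads came from was not tested. It shares none of its 93 words of 31 bases with Lars2, which is on the same chromosome.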
